A study of Mus musculus with 11 samples.

Results

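Mitochondrial ribosomal proteins are encoded in the nucleus, made in the cytosol and imported into mitochondria, where they form the mitochondrial ribosome. The genes described here are all those whose name in the deposited count files is Mrpl or Mrps followed by a digit. They number 66 of the 24914 rows of each file, 42 named for the large subunit (Mrpl) and 24 for the small subunit (Mrps). Members of the mitochondrial ribosome under other names are given separately, and other Mrpl and Mrps genes were not analysed here.

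Whole-kidney messenger RNA was sequenced from mice that model Alport syndrome, an inherited kidney disease in which a network of type IV collagen is missing from the glomerular basement membrane. All 11 mice were 129X1/SvJ, with samples taken at 5.5 weeks of age. The 3 groups were Col4a3+/- given PBS (HET PBS, n = 3), Col4a3-/- given PBS (KO PBS, n = 4) and Col4a3-/- given antimiR-21, which blocks the microRNA miR-21 (KO antimiR-21, n = 4). No wild-type kidneys are among the labelled groups, so the reference carries a heterozygous deletion, and the labels give no antimiR-21 dose and no heterozygous mice given antimiR-21. The labels number the replicates without saying more about their origin, so p-values measure the spread between these samples. In whole tissue, fewer cells of a type and less RNA per cell cannot be told apart.

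The mitochondrial ribosome translates the few proteins that the mitochondrial genome encodes, which are core subunits of the respiratory chain and of ATP synthase. Its small subunit holds the messenger RNA and reads the codons, and its large subunit joins the amino acids and guides the new chain through an exit tunnel toward the inner membrane. Many of its proteins have counterparts in bacterial ribosomes, and others are found only in mitochondria. The kidney, the proximal tubule above all, is rich in mitochondria because reabsorption of salt and solutes uses much ATP.

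Not every one of these genes could be measured alone. In the deposited files 23 of the 66 carried the same count as another gene name in all 11 libraries, and such names were joined into 1 locus, written with a slash. Mrpl46 and Mrps11, which lie head to head with starts 412 bp apart, share one count, so the 66 genes make 65 loci. The other 43 genes have a row of their own, 27 for the large and 16 for the small subunit. Of the 65 loci 33.8% were joint, against 10.4% of all 14380 loci tested. Of the 23 joined genes 9 lie head to head with their partner (starts 29 to 891 bp apart). Another 11 were classed as tail to tail, and 3 lie on the same strand. Of the 23 genes 11 overlap the partner (GENCODE vM21 on GRCm38). Mrps27, classed as tail to tail, holds its partner 6430562O15Rik wholly within its span, on the opposite strand.

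Several partners also serve mitochondria. Mrps12 shares its count with Sars2, the mitochondrial seryl-tRNA synthetase, Mrpl43 with Peo1, the mitochondrial DNA helicase, and Mrpl36 with Ndufs6, a subunit of respiratory complex I. Other partners belong elsewhere in the cell, such as Stx3, a membrane fusion protein (with Mrpl16), Rab6a, a Golgi GTPase (with Mrpl48), Copb2, a vesicle coat protein (with Mrps22), and Actl6a, a chromatin remodelling subunit (with Mrpl47). The remaining joint loci were AW146020/Mrpl19, Ighmbp2/Mrpl21, Mrpl24/Rrnad1, Mrpl27/Xylt2, Mrpl35/Reep1, Mrpl38/Trim65, Mrpl51/Ncapd2, Ccdc142/Mrpl53, 2610507I01Rik/Mrpl55, Cacybp/Mrps14, Mrps25/Nr2c2, 6430562O15Rik/Mrps27, Mrps28/Tpd52 and Gm5887/Mrps35. A value of a joint locus belongs to both of its genes together and cannot be assigned to either.

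Libraries held 17.9 to 39.7 M counts after this joining, and all 65 loci passed the filter on low counts. Ddx3y, a gene of the Y chromosome, stood at 89.7 to 109.5 CPM (counts relative to the TMM-scaled library total) in 5 libraries. In the other 6 it did not exceed 0.172 CPM. The 5 are HET PBS replicates 2 and 3, KO PBS replicates 3 and 4 and KO antimiR-21 replicate 4, and the labels give no sex. The groups therefore hold different shares of such libraries (2 of 3, 2 of 4 and 1 of 4), and this split is carried beside every comparison. Col4a3 shares its count with Col4a4, at 870 to 1271 CPM in HET PBS, 607 to 997 in KO PBS and 515 to 809 in KO antimiR-21, and does not check the genotype labels. Markers of the nephron were high (9 of 9 proximal tubule genes tested, summing to 17910 to 40630 CPM). The 4 skeletal muscle genes listed did not pass the filter. Of 5 adrenal genes 1, Star, did, as a joint count with Ash2l that cannot be assigned to either.

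The promoters are shown for a few members that hold a short motif present in a larger share of members than of tested genes. The YY1 and NRF1 cores, given below, were so as well, and no test was applied to these counts. RefSeq windows of 300 bases around the start (GRCm38.p6) matched 58 of the 66 genes. The motif CCGGAAG, the core bound by ETS factors such as GABPA, a regulator of nuclear genes for mitochondria, was present on either strand in 22 of the 58 (37.9%), against 17.0% of 9808 windows of tested genes and 9.93% of all 27025. It was found upstream of Mrpl22, Mrpl34 and Mrpl52, the genes with a row of their own that had the smallest p in the 3 group comparisons. None of these genes passed (edgeR adjusted p = 0.468, 0.546 and 0.683), and Mrpl52 was higher while Mrpl22 and Mrpl34 were lower. A link between the motif and these differences was not tested. Each stretch is printed 5′ to 3′ on the strand of the gene, with the motif in capitals, which for Mrpl52 is its reverse complement.
Mrpl22, chr11:58171586-58171642 (+): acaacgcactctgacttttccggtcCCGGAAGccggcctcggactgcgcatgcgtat
Mrpl34, chr8:71464864-71464920 (+): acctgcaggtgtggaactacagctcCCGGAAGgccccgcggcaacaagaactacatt
Mrpl52, chr14:54426837-54426893 (+): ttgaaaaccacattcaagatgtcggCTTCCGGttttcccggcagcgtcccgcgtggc

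The YY1 core was in 5 of 58 member windows (8.62%, against 2.03% of tested genes) and the NRF1 core in 3 (5.17% against 2.17%), those of Mrpl9, Mrpl32 and Mrpl39. GGGCGGG, bound by SP1, was in 23 (39.7% against 49.6%), CACGTG, the E-box, in 4 (6.90% against 11.3%), and the core of the estrogen-related receptors in 0 (against 0.35%). None of the 6 motifs was found in 15 member windows. The median GC content of the member windows was 57.7%, against 60.3% for tested genes. These are matches of letters in a window and say nothing of whether a factor binds there. Of the 9 windows of genes that were higher in the libraries with Y-linked reads (given further on), 2 held the ETS motif, 2 that of SP1, 1 that of YY1 and 1 the E-box.

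Mean CPM differed more from locus to locus than the CPM of any 1 locus did between libraries. Mean CPM ran from 8.80 for Mrpl23 to 245.7 for the joint Copb2/Mrps22 locus, with a median of 52.3, and 34 of the 43 genes with their own row lay between 25 and 65 CPM. The highest library exceeded the lowest by 1.19 times (AW146020/Mrpl19 and Mrps25/Nr2c2) to 1.6 times (Mrpl22 and Mrpl4), with a median of 1.35 times. The SD of log2 CPM over the 11 libraries had a median of 0.151 over the 65 loci, against 0.234 over all tested loci. The tested loci reach lower levels, such as Serpina1a at 0.133 to 0.343 CPM in HET PBS. The SDs were not compared at matched levels. Mrpl54 (0.23), Mrpl22 (0.23) and Mrpl18 (0.22) varied most, and AW146020/Mrpl19 (0.07), Mrps25/Nr2c2 (0.08) and Mrpl24/Rrnad1 (0.09) least.

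Levels can be compared between genes only per length, and the order depends on the length used. Per kilobase of the principal transcript the highest means were those of Mrpl42 (130.8 CPM per kilobase), Mrpl33 (127.2), Mrpl4 (75.5) and Mrpl28 (67.3). The lowest were Mrpl17 (7.51), Mrps33 (8.09), Mrpl15 (8.71) and Mrpl1 (10.4). Per kilobase of all annotated exons Mrpl33 fell to 8.30, since its annotated exons span 7326 bases against 478 in the principal transcript, and Mrpl42 to 23.6. Mrpl28, at 52.1, was the third highest of the 43 genes by that length. Mrpl15, at 4.31, stood among the lowest by both lengths, while the places of Mrpl33 and Mrpl42 rest on the transcript model.

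**Figure D1:**
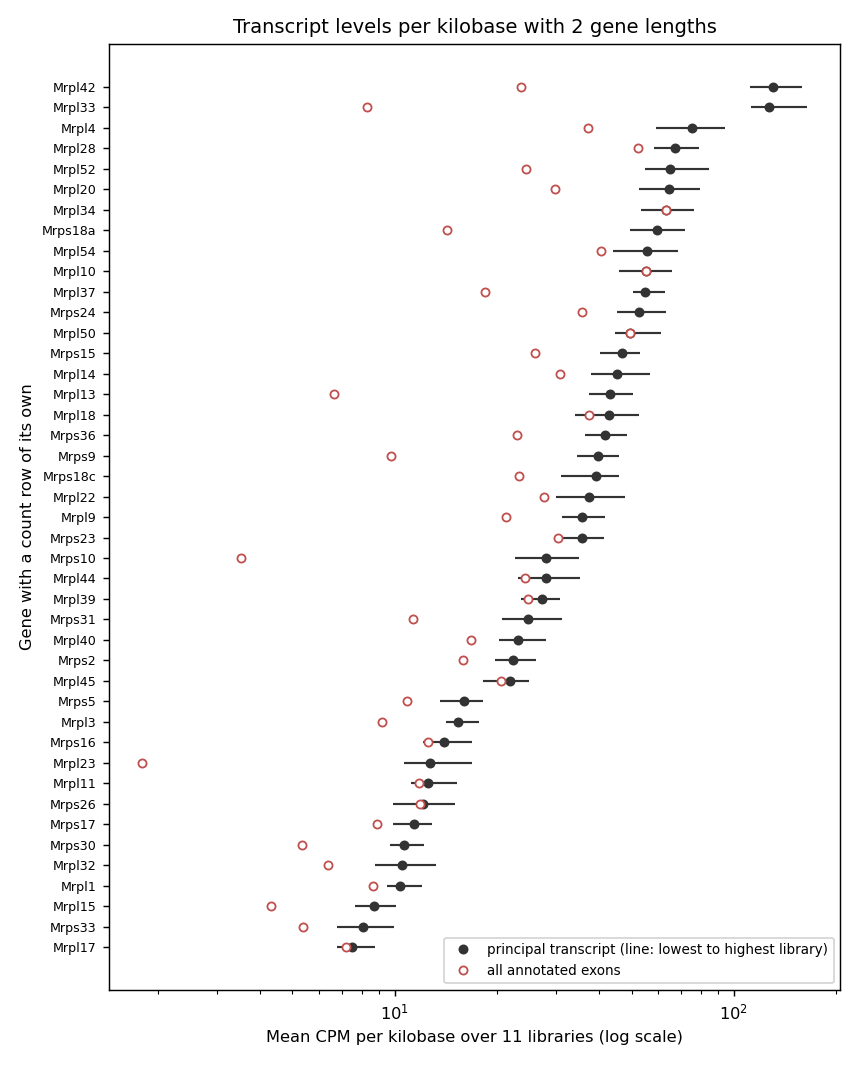
Mean CPM per kilobase over 11 libraries (horizontal, log scale) of the 43 genes with a count row of their own (vertical), by the length of the principal transcript (black, with a line from the lowest to the highest library) and by all annotated exons (open red). Mrpl33 moves from 127.2 to 8.30 between the lengths, while Mrpl10, Mrpl34 and Mrpl50 lie at the same place by both.

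Genes of the mitochondrial ribosome had like high and low libraries. For each library the log2 CPM of a locus minus its HET PBS mean was taken, and the median over the 65 loci was -0.15, 0.09 and 0.08 in HET PBS replicates 1 to 3. It was -0.19, 0.04, -0.03 and -0.11 in KO PBS replicates 1 to 4 and -0.17, -0.19, -0.25 and 0.08 in KO antimiR-21 replicates 1 to 4. Of the 65 loci, 1 lay above the HET PBS mean in HET PBS replicate 1 and 60 did in HET PBS replicate 3, a wide spread within 1 group. The library medians of the 3 groups overlapped. In HET PBS and KO antimiR-21 the libraries with Y-linked reads were the high ones (0.09, 0.08 and 0.08, against -0.15 to -0.25 for the others). KO PBS did not divide that way, with -0.03 and -0.11 with Y-linked reads and -0.19 and 0.04 without.

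**Figure D2:**
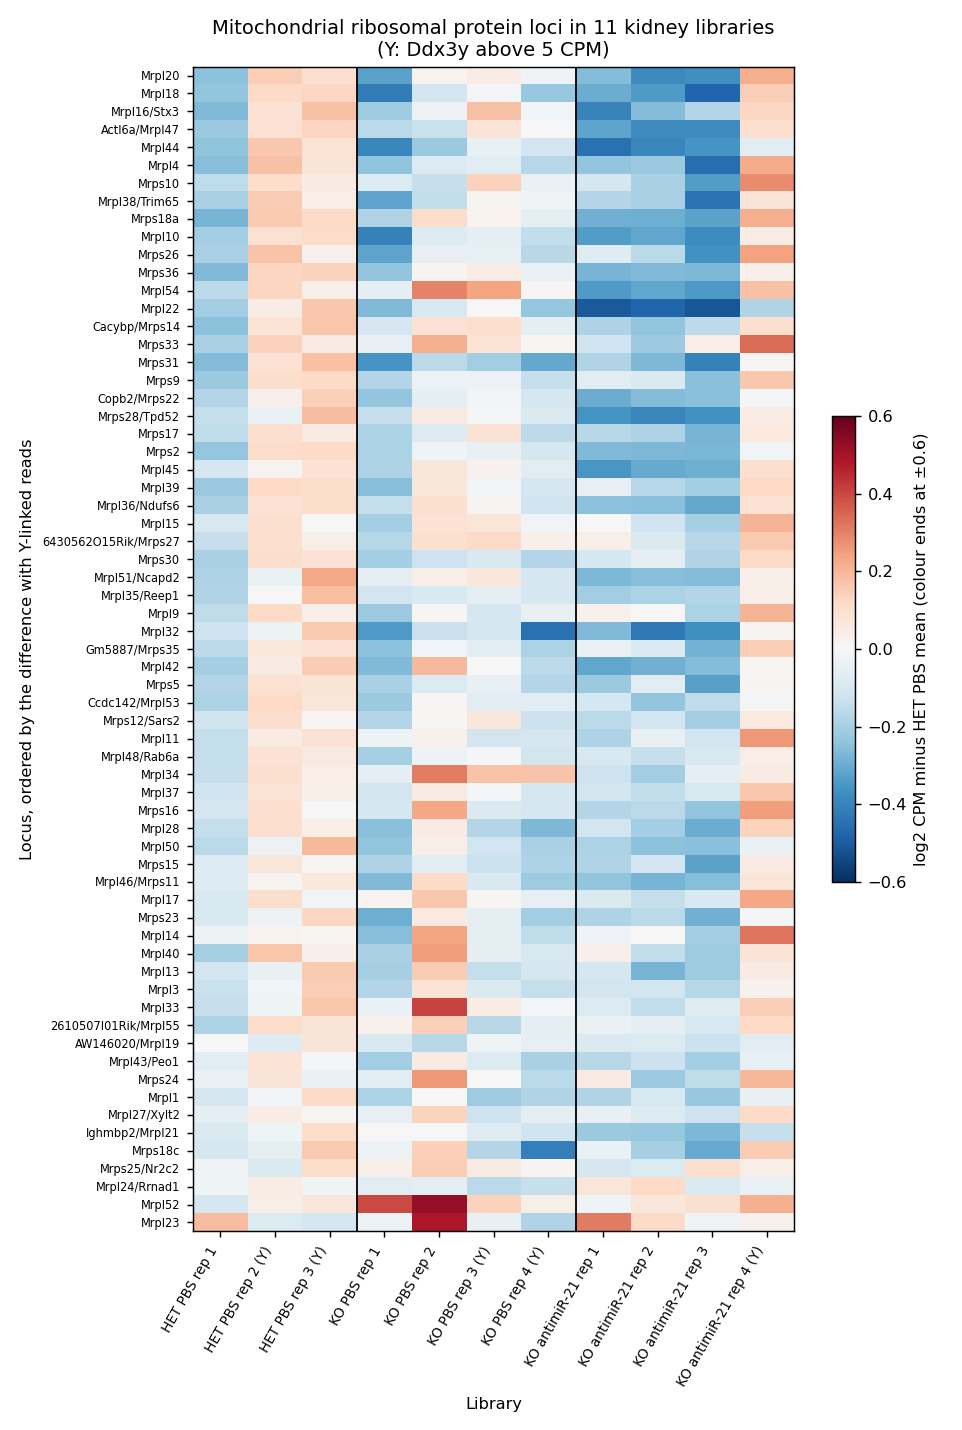
Log2 CPM minus the HET PBS mean (colour, ending at ±0.6) of the 65 loci (rows, ordered by their difference between libraries with and without Y-linked reads) in the 11 libraries (columns, Y for Ddx3y above 5 CPM). Most rows share the colours of their column, blue in HET PBS replicate 1 and in KO antimiR-21 replicates 1 to 3 and red in HET PBS replicates 2 and 3 and KO antimiR-21 replicate 4, while Mrpl23 and Mrpl52 at the bottom go another way.

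**Figure D3:**
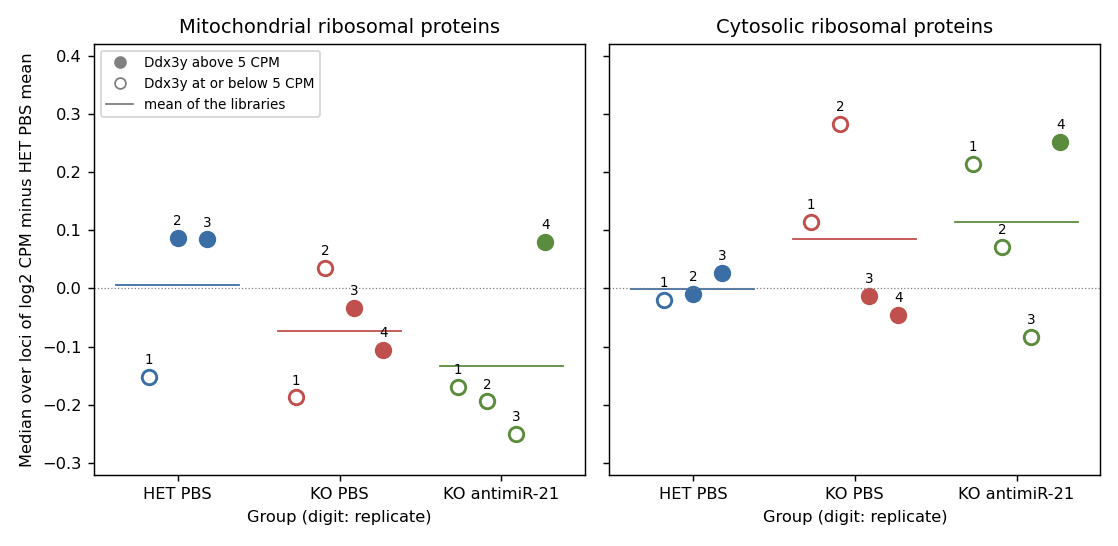
Median over loci of log2 CPM minus the HET PBS mean (vertical) in each library (point, with its replicate number) by group, for 65 mitochondrial ribosomal protein loci (left) and 82 loci of the cytosolic ribosome (right). Filled points are libraries with Ddx3y above 5 CPM and lines are means over libraries; the mitochondrial medians run from -0.25 to 0.09, and the 3 lowest KO antimiR-21 points are the 3 without Y-linked reads.

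The first comparison, of KO PBS with HET PBS, asks what loss of the second Col4a3 allele changed in the kidney at this age. None of the mitochondrial ribosomal protein genes passed the test: edgeR's quasi-likelihood test with Benjamini-Hochberg adjustment over all loci called 0 of 65 at 0.05, and 0.0% of the 14380 loci tested. At an unadjusted p under 0.05 it had 1 higher (4.21% of all loci) and 1 lower (2.73%). DESeq2 and limma-voom also called 0 of 65, and over all loci they called 84 and 0. The median log2 difference of the 65 loci was -0.07, against -0.015 over all loci, with 55 of 65 below 0 (53.5% of all loci) and 10 above it (46.5%). The 95% interval of 61 loci lay within 0.5 log2 units of 0, so larger differences in either direction were outside the interval for most of them.

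The gene with the smallest p was Mrpl52, a large subunit protein found only in mitochondria (chr14:54426909-54429756). It stood at 22.9, 25.2 and 25.7 CPM in HET PBS and at 32.3, 35.4, 27.1 and 25.2 in KO PBS. The KO PBS replicates 1 and 2 were the high ones, and replicate 4 fell among the HET PBS values, so the groups overlapped. KO PBS was higher by 0.28 on the log2 scale (SE 0.121, edgeR adjusted p = 0.683), which did not pass. Mrps31, a small subunit protein without a bacterial counterpart (chr8:22411361-22429665), went the other way, at 34.9, 44.4 and 47.2 CPM in HET PBS against 32.7, 37.4, 36.1 and 33.8 in KO PBS. HET PBS replicate 1 lay among the KO PBS values, and the log2 difference of -0.27 (SE 0.121, adjusted p = 0.716) did not pass.

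Mrpl32, a large subunit protein that a mitochondrial protease trims before assembly, stood at 32.9, 35.1 and 40.0 CPM in HET PBS and 28.3, 32.8, 33.4 and 26.3 in KO PBS (log2 difference -0.25, edgeR adjusted p = 0.757). Mrpl1, of the stalk where used tRNA leaves (-0.14, adjusted p = 0.787), and Mrps30 (-0.16, adjusted p = 0.792) followed, both with overlapping groups. The ranges did not overlap for 1 locus, Mrpl24/Rrnad1, at 138.0 to 144.8 CPM in HET PBS and 125.4 to 135.5 in KO PBS (log2 difference -0.11, adjusted p = 0.804), where 3.21% of all loci were apart in that direction. None was apart in the other direction, as 3.55% of all loci were.

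The median had opposite signs in the libraries with and without Y-linked reads, a difference that was not tested. Among the 5 libraries with Y-linked reads the median of the 65 loci was -0.11 between KO PBS and HET PBS, and among the 6 without, where HET PBS has 1 library, it was 0.09. Mrps31, Mrpl1 and Mrps30 lay at 0.01, 0.02 and 0.03 among the libraries without Y-linked reads. With Y-linked status as a term it was -0.04, with 48 of 65 below 0. Leaving out HET PBS replicate 1 gave -0.15 over all other libraries (59 below 0), and leaving out HET PBS replicate 2 or 3 gave -0.02 and -0.01 (40 and 36 below 0). Scaled by library totals alone, without TMM, the median was 0.03 with 23 below 0 and all loci at 0.08, so the members lay below the median of all loci under both scalings.

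Markers of several cell types differed in level between these groups too, with 0 called. All 9 proximal tubule genes had negative differences (median -0.33), and their sum was 23470 to 40630 CPM in HET PBS, 17910 to 33010 in KO PBS and 21320 to 34860 in KO antimiR-21. The 6 fibroblast genes were all positive (0.75), with sums of 387.5 to 640.4, 659.6 to 1319 and 622.7 to 1000 CPM, as were the 6 macrophage genes (0.71), at 247.4 to 288.8, 296.1 to 372.1 and 305.8 to 358.9. Of 5 fat genes 4 were positive, with sums of 50.2 to 64.2, 43.3 to 77.9 and 46.3 to 121.7 CPM; Ucp1, which marks brown fat, a tissue rich in mitochondria, reached 17.1 CPM in KO antimiR-21 and 0.631 in HET PBS. The proximal tubule sum also divided by Y-linked reads, at 26560 to 40630 CPM with them and 17910 to 23470 without, largely through Kap. The part of these cell types in the values of the mitochondrial ribosomal protein genes was not tested.

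The second comparison, of treated with untreated knockouts, asks what blocking miR-21 changed in kidneys without Col4a3. Here too 0 of 65 loci passed (edgeR; 0.0% of all loci), with 0 higher and 4 lower at an unadjusted p under 0.05 (4.76% and 3.46% of all loci), and DESeq2 and limma-voom called 0 of 65. The median log2 difference was -0.04, against 0.0038 over all loci, with 48 of 65 below 0 (49.1% of all loci) and 17 above it (50.9%). Intervals of 63 loci lay within 0.5 log2 units of 0.

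Mrpl34, a small large-subunit protein with a bacterial counterpart (chr8:71464959-71465747), had the smallest p. It stood at 35.9, 46.3, 42.1 and 42.2 CPM in KO PBS and at 34.4, 32.4, 35.9 and 38.8 in KO antimiR-21. KO PBS replicate 1 lay among the treated values, and the log2 difference was -0.24 (SE 0.0956, edgeR adjusted p = 0.546). Mrpl22, which lines the exit tunnel (chr11:58171661-58179565), stood at 25.7, 28.9, 30.9 and 26.2 CPM in KO PBS and 21.8, 22.2, 21.6 and 27.2 in KO antimiR-21. The first 3 treated libraries lay below every KO PBS library and replicate 4, the one with Y-linked reads, did not (log2 difference -0.27, SE 0.112, adjusted p = 0.560).

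Mrpl54, a large subunit protein found only in mitochondria, had 32.4, 41.5, 39.8 and 33.9 CPM in KO PBS and 26.7, 27.2, 26.6 and 38.1 in KO antimiR-21 (log2 difference -0.32, edgeR adjusted p = 0.572). For Mrps28/Tpd52 the treated values were 178.5, 174.9, 178.0 and 235.9 CPM against 208.2 to 237.8 in KO PBS (-0.21, adjusted p = 0.682). The joint Ighmbp2/Mrpl21 locus had ranges that did not overlap, 40.8 to 44.4 CPM in KO PBS and 36.8 to 40.2 in KO antimiR-21 (-0.17, adjusted p = 0.572), as 1.95% of all loci did in that direction, and 0 were apart in the other (2.34% of all loci). Mrps30 stood at 32.3, 34.1, 34.9 and 32.9 CPM in KO PBS and 34.6, 35.8, 32.8 and 40.5 in KO antimiR-21, with overlapping groups and a log2 difference of 0.10 (SE 0.0917, adjusted p = 0.836).

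Among the libraries without Y-linked reads the median of the 65 loci was -0.13 between treated and untreated knockouts, and among those with them, where KO antimiR-21 has 1 library, it was 0.12. Mrpl54 and Mrps28/Tpd52 then lay at 0.03 and 0.07. With Y-linked status as a term the median was -0.0125, with 38 of 65 below 0. Leaving out KO antimiR-21 replicate 4 gave a median of -0.12 (61 below 0), leaving out replicate 3 gave -0.0076 (33 below 0) and leaving out KO PBS replicate 2 gave -0.02 (36 below 0).

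The third comparison set KO antimiR-21 against HET PBS, and no locus of the 65 passed it either (edgeR; 0.00695% of all loci, which is 1 locus). At an unadjusted p under 0.05 there were 0 higher and 3 lower (5.04% and 3.01% of all loci). DESeq2 and limma-voom called 0 of 65, and over all loci they called 74 and 0. The median log2 difference was -0.13, against -0.0024 over all loci, or -8.64% in level. Below 0 lay 59 of 65 (50.5% of all loci) and above it 6 (49.5%). This comparison shares the HET PBS libraries with the first and the treated libraries with the second, so it is no separate evidence.

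Mrpl22 had the smallest p. It stood at 26.7, 31.8 and 34.6 CPM in HET PBS against the treated values given above, of which replicate 4 (27.2) exceeded HET PBS replicate 1. Its log2 difference of -0.42 (SE 0.120, 95% interval -0.68 to -0.16, edgeR adjusted p = 0.468) was the largest in size of the 65 loci in any of the 3 comparisons. Mrpl44, a protein with an RNase-like fold whose human gene is mutated in a childhood cardiomyopathy (chr1:79776018-79781445), stood at 37.9, 50.01 and 47.3 CPM in HET PBS and 32.9, 34.2, 35.0 and 42.9 in KO antimiR-21. The treated replicate 4 lay within the HET PBS values (log2 difference -0.32, adjusted p = 0.590).

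Mrps2, a small subunit protein near the path of the messenger RNA (chr2:28468066-28471178), stood at 42.4, 53.9 and 54.2 CPM in HET PBS and 41.4, 41.3, 41.2 and 49.2 in KO antimiR-21 (log2 difference -0.21, edgeR adjusted p = 0.614). Mrps28/Tpd52 had a difference of -0.26 (adjusted p = 0.614). Ighmbp2/Mrpl21 ranged from 41.7 to 47.8 CPM in HET PBS, above all 4 treated libraries (-0.22, adjusted p = 0.564), where 2.1% of all loci were apart in that direction; 0 were apart in the other (3.88% of all loci). The median of the 65 loci was -0.04 among libraries without Y-linked reads and 0.01 among those with them, both nearer to 0 than the value over all libraries, and -0.06 with Y-linked status as a term, with 49 of 65 below 0. It was -0.20 without KO antimiR-21 replicate 4 and -0.07 without HET PBS replicate 3.

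**Figure D4:**
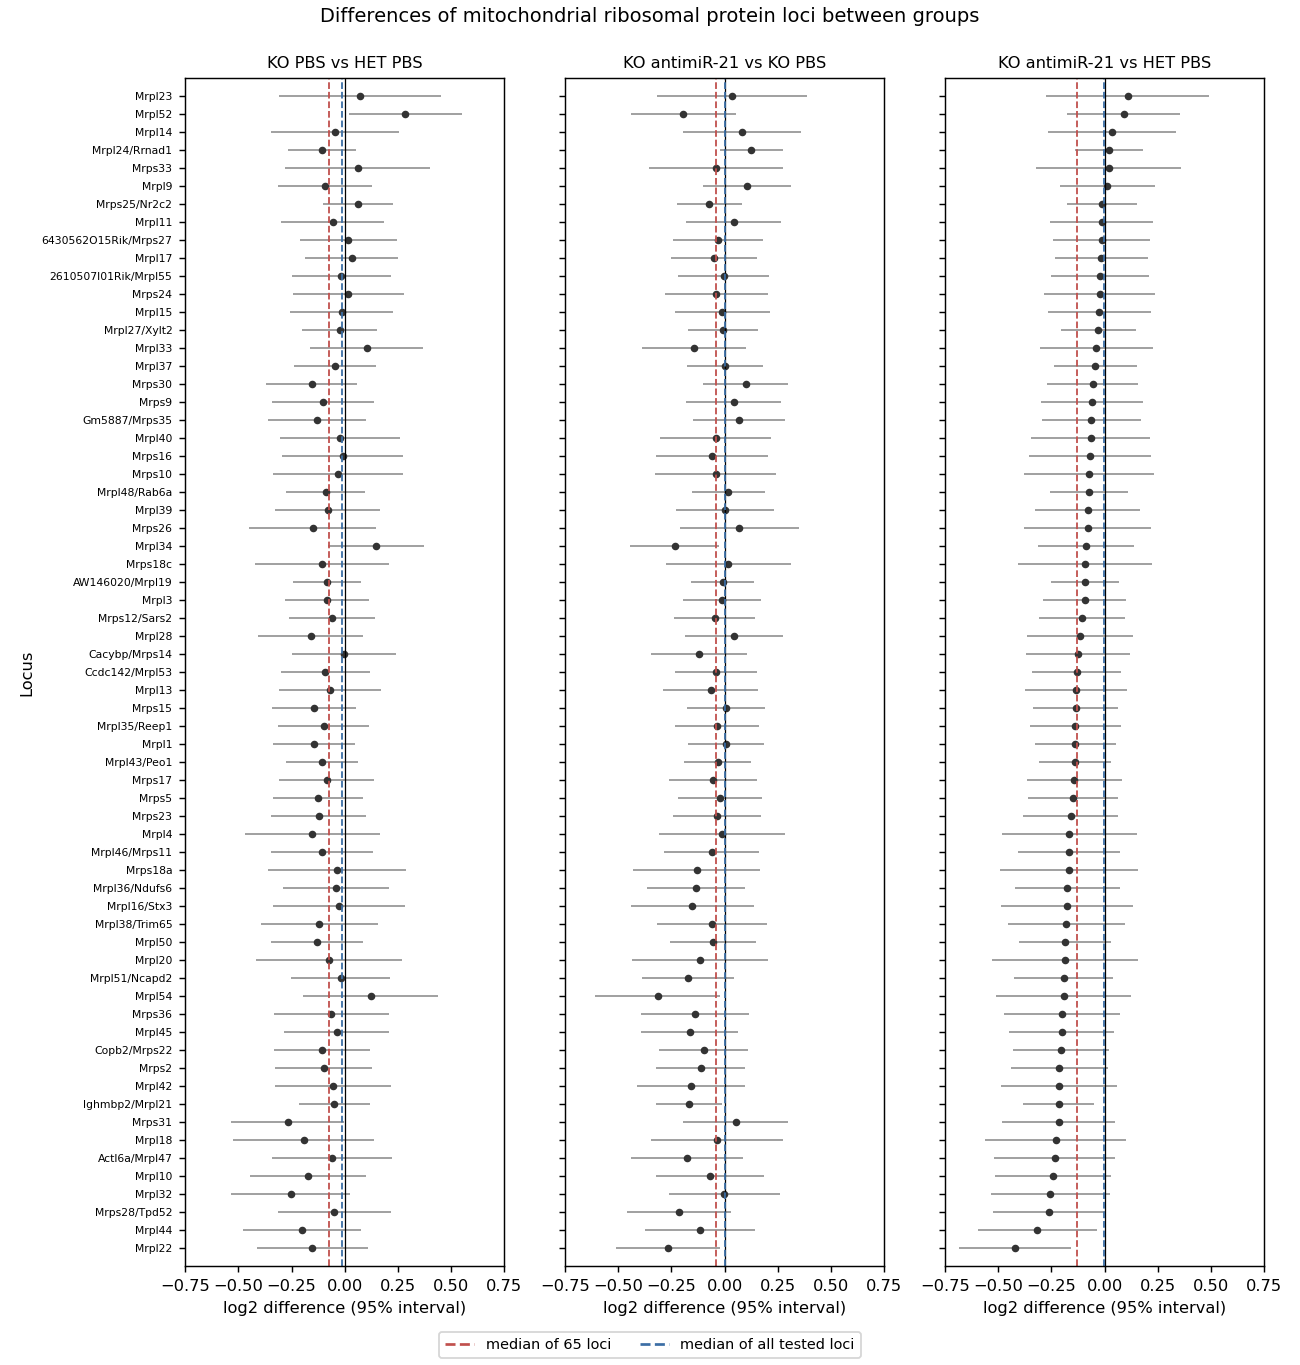
Log2 differences (horizontal, with 95% intervals derived from the edgeR test) of the 65 loci (vertical, ordered by the right panel) in the 3 group comparisons. The dashed red line is the median of the 65 loci (-0.07, -0.04 and -0.13 from left to right) and the dashed blue line that of all tested loci; no locus passed the adjusted threshold in any panel.

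Medians were also taken over parts of the ribosome, without a test of the differences between parts. Among genes with a row of their own, the 27 large subunit genes had a median log2 difference of -0.07 between KO PBS and HET PBS and the 16 small subunit genes -0.10. Between KO antimiR-21 and KO PBS the medians were -0.04 and -0.04, and between KO antimiR-21 and HET PBS -0.12 and -0.11. Divided instead by place in the structure, which counts Mrps30 with the large subunit and leaves out a few members such as Mrps18a and Mrps36, 18 large subunit genes had bacterial counterparts and 10 were found only in mitochondria. Their medians in the order of the 3 comparisons were -0.08, -0.01 and -0.10 for the 18 and -0.05, -0.09 and -0.13 for the 10. The 9 small subunit genes with counterparts had -0.10, -0.04 and -0.09 and the 4 without had -0.14, 0.0071 and -0.12. Between KO PBS and HET PBS the 4 exit tunnel genes had a median of -0.0021 and the 2 genes near the catalytic centre -0.12, and in the second comparison they had -0.11 and -0.01. The 22 joint loci had medians of -0.06, -0.05 and -0.13 in the order of the 3 comparisons, near those of the genes with their own row (-0.08, -0.04 and -0.12).

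A list of genes mutated in human mitochondrial disease was read separately. The list used holds 6 of the members and is not complete; Mrpl3, Mrpl44, Mrps2 and Mrps16 have their own row, and Mrps14 and Mrps22 are joint. These 6 loci had negative differences in each group comparison (medians -0.09, -0.11 and -0.17), and 0 passed. Mrpl3, near the catalytic centre, stood at 57.9 to 70.4 CPM in HET PBS, 56.2 to 67.2 in KO PBS and 56.5 to 64.6 in KO antimiR-21, and Mrps16 at 34.1 to 39.3, 34.1 to 43.1 and 31.1 to 43.6. Copb2/Mrps22 stood at 234 to 292, 224 to 262 and 215 to 263 CPM, and Cacybp/Mrps14 at 81.5 to 108.4, 90.1 to 103.7 and 82.1 to 103.6. The groups overlapped for each of these 4 loci.

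Some members sit elsewhere than their names say. Mrps18a and Mrps30 are named for the small subunit but are parts of the large subunit in structures of the mammalian ribosome. Mrps18a stood at 45.1, 61.1 and 59.6 CPM in HET PBS, 48.3, 59.2, 55.5 and 52.8 in KO PBS and 44.8, 44.6, 43.8 and 63.6 in KO antimiR-21. Mrps18c, its relative in the small subunit, stood at 19.8 to 29.3 CPM over all libraries. Per kilobase of the principal transcript Mrps18c was below Mrps18a (39.3 against 59.5). Per kilobase of all annotated exons it was above Mrps18a (23.3 against 14.25). Mrps36, later found to be a subunit of the oxoglutarate dehydrogenase complex of the citric acid cycle, stood at 25.7, 33.8 and 34.0 CPM in HET PBS, 26.2 to 31.9 in KO PBS and 25.5, 25.7, 25.6 and 31.5 in KO antimiR-21. KO antimiR-21 replicate 4 was the high treated library in Mrps36 and Mrps18a alike.

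Libraries with Y-linked reads were compared with those without, keeping the 3 groups in the model, because this split ran through every group. Of the 65 loci 11 were higher in the 5 libraries with Y-linked reads (edgeR adjusted p under 0.05, 16.9%), against 11.1% of all loci, and 0 were lower, against 6.85%. The median log2 difference was 0.15, against -0.02 over all loci, with 62 of 65 above 0 (46.4% of all loci) and 3 below it (53.6%). By level this median is 11.3% higher. At an unadjusted p under 0.05 there were 31 higher (17.9% of all loci) and 0 lower (15.4%). The libraries with Y-linked reads are not a group of the study, and their number within each group is small.

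The 11 loci hold genes of several parts of the ribosome, and 3 of them are joint counts that cannot be assigned to 1 gene. Of the large subunit, Mrpl4 and Mrpl16/Stx3 lie near the catalytic centre, Mrpl10 holds the stalk that recruits translation factors, Mrpl18 and Mrpl38/Trim65 belong to the central protuberance, Actl6a/Mrpl47 to the exit tunnel, and Mrpl20, Mrpl44 and Mrps18a to the body. Mrps10 is in the head of the small subunit, and Mrps36 is the dehydrogenase subunit. Their log2 differences ran from 0.25 (Mrps36) to 0.34 (Mrpl20).

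Actl6a/Mrpl47 had the smallest p, at 73.9 to 80.9 CPM with Y-linked reads and 56.9 to 67.4 without, with no overlap (log2 difference 0.31, SE 0.0588, edgeR adjusted p = 0.00304). Mrpl44 stood at 50.01, 47.3, 43.4, 41.3 and 42.9 CPM with Y-linked reads, and at 37.9, 34.1, 38.3, 32.9, 34.2 and 35.0 without, again with no overlap (0.30, adjusted p = 0.00575). Mrpl20 (chr4:155802878-155809975) stood at 57.8, 56.0, 53.8, 51.5 and 60.7 CPM with and at 44.0, 41.7, 53.0, 43.6, 40.1 and 40.4 without. KO PBS replicate 2, at 53.0, lay among the libraries with Y-linked reads, and the difference was 0.34 (SE 0.0842, adjusted p = 0.0149).

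Mrps10 stood at 28.4 to 35.6 CPM with Y-linked reads and 23.1 to 27.6 without (log2 difference 0.28, edgeR adjusted p = 0.0282), and Mrpl16/Stx3 (0.32, adjusted p = 0.00771) and Mrpl38/Trim65 (0.28, adjusted p = 0.0106) also had ranges that did not overlap. Together with the 2 above, 5 of 65 loci were apart in that direction (7.69%, against 8.14% of all loci), and 0 in the other (4.14%). Mrpl18 (0.32, adjusted p = 0.0214), Mrpl10 (0.26, 0.0246), Mrpl4 (0.29, 0.0368), Mrps36 (0.25, 0.0403) and Mrps18a (0.28, 0.0478) passed with overlapping ranges. In each of these 5 the overlap came through KO PBS, where replicate 2 was high.

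The 3 loci below 0 were Mrpl23, Mrpl52 and Mrpl24/Rrnad1. Mrpl23, an exit tunnel protein (chr7:142532686-142540747), stood at 7.91, 7.78, 8.11, 7.38 and 8.51 CPM with Y-linked reads and at 9.53, 8.17, 11.7, 10.4, 9.06 and 8.25 without (log2 difference -0.26, SE 0.126, edgeR adjusted p = 0.164). It is the member with the lowest mean level, and of the 6 exit tunnel loci it and Mrpl24/Rrnad1 were the 2 with negative differences.

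**Figure D5:**
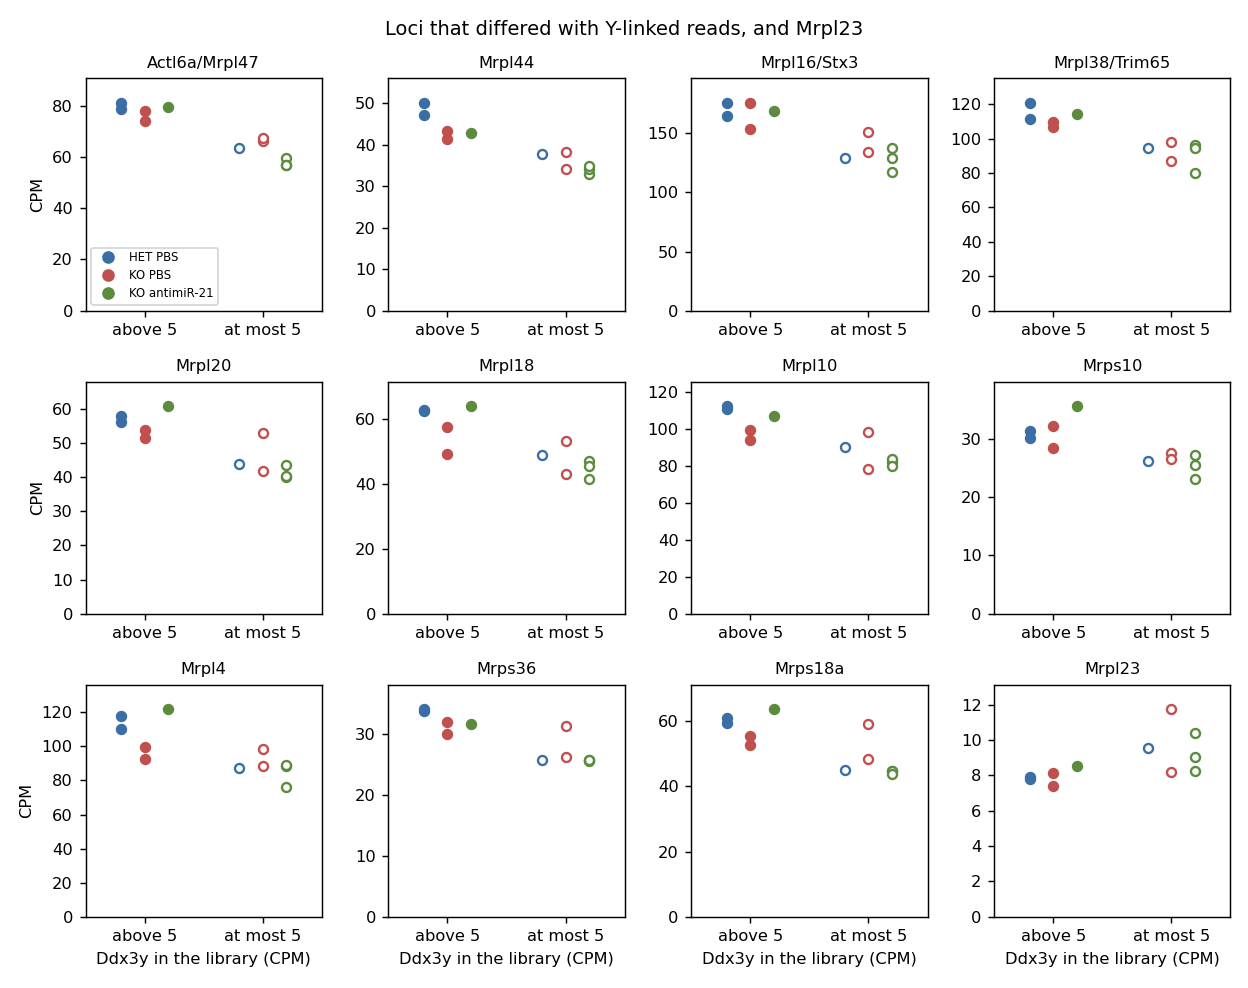
CPM (vertical, from 0) of the 11 loci that passed between libraries with and without Y-linked reads, and of Mrpl23, in the 11 libraries, coloured by group (filled for Ddx3y above 5 CPM, open for the rest). KO antimiR-21 replicate 4, the filled green point, stands apart from the 3 open green points in most panels, and the filled and open red points of KO PBS lie nearer to each other.

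The count of 11 depends on single libraries. It was 35 without KO PBS replicate 2, 21 without KO PBS replicate 4, 2 without HET PBS replicate 1 and 2 without KO antimiR-21 replicate 4. It was 5 without KO PBS replicate 3, 6 without KO PBS replicate 1, and 7 without HET PBS replicate 2 or without KO antimiR-21 replicate 2. In each of these fits 0 members were lower. Scaled by library totals 6 were higher and 2 lower, and the median of the 65 loci was 0.05, with all loci at -0.12. Markers of other cells moved with this split as well. The summed proximal tubule markers were at 26560 to 40630 CPM with Y-linked reads and 17910 to 23470 without, largely through Kap, an androgen-regulated gene (19080 ± 3921 against 7096 ± 1657 CPM, SD), while 6 of the 9 markers had negative differences and the median over the 9 was -0.05. Of the 4 podocyte genes tested 4 were lower at an edgeR adjusted p under 0.05 (median -0.41), where 6.85% of all loci were. By the same threshold 2 of the 9 proximal tubule genes were higher (11.1% of all loci). Lower were 1 of 4 thick ascending limb, 1 of 2 distal convoluted tubule, 1 of 6 fibroblast and 1 of 3 liver genes. The part of these in the differences of the ribosomal genes was not tested.

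Other genes of mitochondrial translation were read beside the ribosome, from lists chosen with it. The joint loci Mrps12/Sars2 (tRNA charging) and Mrpl43/Peo1 (DNA maintenance) are in these lists and also among the 65 loci. The 5 ribosomal proteins under other names had medians of -0.06, -0.05 and -0.08 in the 3 group comparisons and 0.16 for Y-linked reads. There 1 of 5, Dand5/Gadd45gip1, was higher (edgeR adjusted p = 0.0128), where 11.1% of all loci were. The 13 loci of translation factors had medians of -0.11, 0.03 and -0.08, all 13 below 0 between KO PBS and HET PBS, and 0.25 for Y-linked reads. In that last comparison 7 of the 13 were higher (11.1% of all loci were) and 1 lower (6.85% of all loci). Gfm1, an elongation factor, stood at 225 ± 21.9 CPM with and 163 ± 16.0 without (SD; log2 difference 0.43, adjusted p = 0.0036), and Lrpprc, which stabilises mitochondrial messenger RNA, at 252 ± 27.5 and 190 ± 8.68 (0.35, adjusted p = 0.0018). The lower one was Oxa1l/Slc7a7 (-0.27, adjusted p = 0.0425), which joins the insertase of the inner membrane to an amino acid transporter.

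Of 20 loci that charge mitochondrial tRNA, 4 were higher with Y-linked reads, where 11.1% of all loci were (median 0.12), led by Yars2 (29.9 ± 1.28 against 23.0 ± 1.82 CPM, edgeR adjusted p = 0.00482) and Qrsl1/Rtn4ip1 (adjusted p = 0.00545). Of 19 loci for assembly and ribosomal RNA modification 2 were higher (median 0.07), Dhx30 and Coq4/Trub2, a share near that of all loci. The 9 loci of mitochondrial transcription and DNA maintenance had 0 called (median 0.11), and of 8 regulators of mitochondrial biogenesis 1, Myc, was lower (8.199 ± 1.71 against 11.7 ± 1.89 CPM, adjusted p = 0.00979), as 6.85% of all loci were. No locus of these lists passed in the 3 group comparisons.

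Genes of the cytosolic ribosome, which makes all other proteins, were mostly on the other side of 0. Their 82 loci had medians of 0.09, 0.03 and 0.12 in the 3 group comparisons and -0.03 for Y-linked reads. Between KO antimiR-21 and HET PBS 69 of 82 lay above 0, where 59 of the 65 mitochondrial loci lay below, and 0 of 82 passed. Rps7, a small subunit protein, stood at 164 ± 10.6 against 143 ± 2.82 CPM there (SD; edgeR adjusted p = 0.595). The difference between both sets was not tested, as they were read only through their counts and medians. In the libraries themselves the cytosolic median was highest in KO PBS replicate 2 (0.28), KO antimiR-21 replicate 4 (0.25) and replicate 1 (0.21), of which 1 has Y-linked reads.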

How the data were processed

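Poly(A) libraries from 11 kidneys were made with the TruSeq RNA v2 kit, which does not mark strand, per the labels' protocols. Tools listed in the submitters' processing notes, without roles, are STAR, HTSeq 0.5.4p5, SAMtools, FastQC and limma, with build mm10; the sources used here do not give the annotation or how reads were counted. The authors deposited, per the file headers, an estimated count per gene and library, not normalized (47.4% of values above 0 are not whole), at 22.4 to 49.7 M per library. The authors' deposited matrix of log2 values was used only as an alternative, and 0 of its columns lacked a sample.

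Names with identical counts in all libraries and a total of at least 50 were joined. Counts were rounded, filtered (filterByExpr), scaled by TMM and fitted over all 11 libraries and 3 groups with edgeR 4.0.16 (glmQLFit, robust) in R 4.3.3, tested two-sided and adjusted over 14380 loci at 0.05. The script was tested on simulated data. The SE was derived from the edgeR log2 difference and its F statistic, and the 95% intervals from that SE and the t distribution. Coordinates are from GENCODE vM21 (GRCm38), which may differ from the counting annotation; promoters are from RefSeq. Y-linked status is Ddx3y above 5 CPM.

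Members, lists and the Y-linked split were chosen with earlier results of these data known. The text names, per comparison, members past the threshold (at most 10) or the 5 with the smallest p, those with groups apart (at most 4, mean of at least 5 CPM), the 4 highest and lowest per kilobase, the 3 most and least variable, disease genes, the S18 family, Mrps30, Mrps36 and joint members. Mrpl23 with Y-linked reads was named after its value was seen, as were the exclusion of Rps6k and pseudogene rows from the cytosolic list and the principal transcript as length. Alternatives were DESeq2 1.42.0, limma-voom and limma 3.58.1 on the log2 matrix, other scalings and filters, unjoined rows, Y-linked status as a term, a replicate block and leaving out each library.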

Additional observations from a re-analysis of the deposited data

Results flagged for a closer look

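In 12 of 62 groups of 4 libraries examined, over the loci named here, 1 library stood apart from the other 3 by more than Dixon's critical gap. The loci were named from these same values, some for their difference with Y-linked reads. The count therefore cannot be set against the chance rate of about 1 in 20. Loci that move together also do not count separately. In 10 of the 12 the library was KO antimiR-21 replicate 4, the treated library with Y-linked reads, above the other treated libraries. It stood at 79.4 CPM for Actl6a/Mrpl47 (56.9 to 59.5 in the others), 107.0 for Mrpl10 (79.7 to 83.5), 63.9 for Mrpl17 (49.4 to 51.3), 60.7 for Mrpl20 (40.1 to 43.6) and 27.2 for Mrpl22 (21.6 to 22.2). For Mrpl42 it stood at 93.3 CPM (74.5 to 77.3), for Mrpl54 at 38.1 (26.6 to 27.2), for Mrps2 at 49.2 (41.2 to 41.4), for Mrps28/Tpd52 at 235.9 (174.9 to 178.5) and for Mrps36 at 31.5 (25.5 to 25.7). In KO PBS replicate 2 stood apart for Mrpl1, at 39.7 CPM (34.1 to 35.0 in the others), and for Mrpl33, at 78.8 (57.8 to 61.4).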

How the results depend on the processing

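In the 3 group comparisons 0 of 65 members were called under every alternative run. Of the counts and medians recomputed, 269 stayed within the spread or within 1.5 times the count and 42 moved; of the values of single loci 588 did not change by these measures, 54 no longer passed it, 5 reversed and 7 levels per kilobase moved. Loci called between KO PBS and HET PBS (0) were 84 by DESeq2, 3 with Y-linked status as a term, 1 on the authors' matrix and 0 to 2 leaving out a library. Between KO antimiR-21 and HET PBS (1) they were 74 by DESeq2, 0 by limma-voom and with a mean of at least 5 CPM, 2 with the status term, 2 on the matrix, 0 to 4 leaving out a library and 0 within either status. Between KO antimiR-21 and KO PBS (0) they were 126 by DESeq2 and 0 to 16. For Y-linked reads (2576) they were 1218 to 3736 leaving out a library. Members called there (11) were 6 with upper quartile scaling, 18 with groups dropped and 2 to 35 leaving out a library; by library totals 8 were called, 6 higher (all among the 11) and 2 lower. With the replicate block loci called were 2, 4, 26 and 553 in the order given and members for Y-linked reads 0. The labels do not say whether the numbers pair the samples, and 6 of 10 same-numbered pairs correlated above 0.1 (-0.444 to 0.629). The block also overlaps the Y-linked split. Replicate 1 of every group lacked Y-linked reads, and replicate 4 of both knockout groups had them.

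Within status, chosen after seeing the data, the member median moved to 0.0901 (KO PBS against HET PBS, without Y-linked reads), and with them to 0.1205 (KO antimiR-21 against KO PBS) and 0.0147 (against HET PBS). Reversed were Mrpl1 (0.0160), Mrps30 (0.0323) and Mrps31 (0.0114) between KO PBS and HET PBS without Y-linked reads, and Mrpl54 (0.0316) and Mrps28/Tpd52 (0.0703) between KO antimiR-21 and KO PBS with them. These fits had fewer samples; otherwise the cause was not tested. Leaving out a library put the median at -0.1479 to -0.0136 (KO PBS against HET PBS), -0.1202 to -0.0076 (KO antimiR-21 against KO PBS), -0.1976 to -0.0737 (KO antimiR-21 against HET PBS) and 0.0852 to 0.2018 (Y-linked reads). Mrpl23, the member with the lowest counts, had the largest SE (0.1742 between KO PBS and HET PBS).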

Other observations

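Mrpl52 had other high libraries than most members, an observation made after its values were seen. It was highest in KO PBS replicates 2 and 1 (35.4 and 32.3 CPM) and stood between 22.9 and 28.5 CPM in the other 9 libraries. Mrpl23 was highest in KO PBS replicate 2 as well (11.7 CPM). KO PBS replicate 2 was also the library without Y-linked reads whose median over the 65 loci was not below 0 (0.04), and the one in which 41 loci lay above the HET PBS mean, against 1 to 6 in the other libraries without Y-linked reads.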
